A study of Mus musculus with 6 samples.

Results

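The genes described here are 35 genes of the ATF4 programme, amino acid supply and tRNA charging, chosen by name from a table of 33157 gene rows, and all 35 were found once each. They comprise 19 subunits of cytosolic aminoacyl-tRNA synthetases, 4 enzymes of serine and asparagine synthesis, 6 amino acid carrier subunits and 6 genes of the ATF4 pathway itself. The RNA is that of group 3 innate lymphoid cells (ILC3s), lymphocytes of the gut mucosa, which were sorted from wild-type mouse small intestine by a gate on CD45, CD127 and high CD90.2 that leaves out lineage-positive and KLRG1-positive cells. In the ILC3_Igf1 group, 3 libraries came from cells kept for 4 h in 20 ng/mL interferon-γ (IFN-γ) and 200 ng/mL insulin-like growth factor 1 (IGF-1). In the ILC3_Ctrl group, 3 libraries came from cells cultured with the same IFN-γ and no IGF-1. IFN-γ was thus common to both groups, there was no culture without it, and the age of the mice is not given in the labels. Nothing in the labels ties a group's libraries to different mice or different cultures, so the spread behind each p-value is that between these libraries alone and may be technical.

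ATF4 is a transcription factor whose protein is made when the initiation factor eIF2α is phosphorylated, as happens when a cell lacks amino acids or has a stressed endoplasmic reticulum, and it is also translated more when mTORC1 is active. It switches on amino acid synthesis enzymes, carriers and many of the enzymes that load amino acids onto tRNAs. In lymphocytes this programme is known for supplying protein synthesis during activation, and growth factors such as IGF-1 act on mTORC1 through PI3K and AKT. Since much of the control of ATF4 is exerted on its translation, the level of its mRNA does not measure its protein.

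Total counts ranged from 32573713 to 39206449 per library. Levels are TMM-normalised CPM, which are counts per 10⁶ reads scaled to a common library size, and differences are log2 fold changes of the IGF-1 cultures over those with IFN-γ only, with their standard error (SE). All p-values come from edgeR's quasi-likelihood test, adjusted by Benjamini-Hochberg over all 13483 genes tested. The ILC3 marker Kit averaged 657 ± 26.5 CPM with IGF-1 and 690 ± 79.8 CPM without it (SD, n = 3 each). Of the markers of other cell types, Eomes and Klra8 (natural killer cells), Krt19 (epithelium) and Ms4a1 (B cells) had no count in any library. Summed over each marker list, T cell markers (7 genes) lay at 240.5 to 269 CPM with IGF-1 and 173 to 218 CPM without it, myeloid markers (6 genes) at 143 to 158 and 220.1 to 291 CPM, and epithelial markers (6 genes) at 14.9 to 22.1 and 33.0 to 48.5 CPM. Most of the T cell sum came from Lck, of the myeloid sum from Fcgr3 and of the epithelial sum from Epcam. Of the tested markers, 3 of 5 for T cells, 2 of 4 for myeloid cells and 0 of 4 for epithelium were positive. Cd4 was negative, at 23.1 ± 4.23 CPM with IGF-1 and 33.3 ± 2.73 CPM without it. Its groups did not overlap (unadjusted p = 0.0165, adjusted p = 0.286 by edgeR). At an adjusted p under 0.05 by edgeR, Fcgr3 (-0.80, adjusted p = 0.0392) and Epcam (-1.13, adjusted p = 0.0442) were lower with IGF-1. B cell markers (5 genes) summed to 50.9 to 62.3 CPM with IGF-1 and 34.0 to 51.3 CPM without it. Within that list Ighm averaged 25.3 ± 2.01 CPM with IGF-1 and 17.5 ± 3.26 CPM without it, in groups that did not overlap (unadjusted p = 0.0199, adjusted p = 0.305 by edgeR), and Cd79b 32.7 ± 4.29 and 26.5 ± 8.99 CPM. The third tested gene, Cd79a, was low and went the other way, at 0.12 ± 0.20 CPM with IGF-1 and 0.65 ± 0.57 CPM without it. Markers of natural killer cells and ILC1s (6 genes) summed to 50.8 to 66.1 CPM with IGF-1 and 50.3 to 72.2 CPM without it. Cd3e, Lyz2 and Krt8 each averaged under 1 CPM in both groups, and the estimate for Cd3e was -0.22. The other CD3 genes were higher and positive, with overlapping groups. Cd3g averaged 13.3 ± 2.59 CPM with IGF-1 and 9.01 ± 4.08 CPM without it, and Cd3d 4.88 ± 2.26 and 2.35 ± 0.93 CPM. The myeloid marker Cd14 averaged 4.17 ± 1.94 CPM with IGF-1 and 2.81 ± 1.23 CPM without it, also with overlap. Mitochondrially encoded mRNAs were positive in 9 of 9, with sums of 19000 to 22400 CPM against 15140 to 19580 CPM, and the nuclear RNAs Malat1 and Neat1 were both negative, with sums of 1039 to 1912 CPM against 1450 to 2514 CPM. The part of these markers in the results below was not tested. In bulk RNA, fewer cells of a type and less RNA per cell cannot be told apart.

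Most of the 35 genes stood slightly higher with IGF-1, while the tryptophan enzyme Wars1 stood lower than in any culture without IGF-1. The positive differences at an unadjusted p under 0.05 were in the phosphoserine phosphatase Psph, the asparagine synthetase Asns and the tRNA synthetase genes Gars1, Rars1 and Farsb, at 24.1% to 69.9% above the cultures with IFN-γ alone. Atf4 mRNA itself was level between the groups. Of the 35 genes, 0 passed at an adjusted p under 0.05, where 0.497% of all genes tested did (0.23% higher and 0.267% lower), and the smallest adjusted p among them was 0.0945, for Wars1. At an unadjusted p under 0.05 there were 5 with a positive and 1 with a negative difference, against 5.58% of all genes positive and 6.24% negative. The same counts at an adjusted p under 0.05 were 1 higher and 1 lower by DESeq2, namely Psph and Wars1, and 0 and 0 by limma-voom.

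By direction alone, 26 of the 35 had a positive log2 fold change (74.3%), against 48.7% of all genes tested. Among genes with a mean of at least 10 CPM the count was 21 of 29 (72.4%), against 50.2%. The median over the 35 was 0.14 on the log2 scale, or 9.81% higher, beside -0.01 over all genes tested. In 10 of the 35 (28.6%) the 3 libraries of one group lay wholly to one side of the other group, against 18% of all genes tested. In 9 of these 10 the IGF-1 libraries were the higher ones, where 8.81% of all genes were so placed, and in Wars1 they were the lower ones, where 9.17% of all genes were. These differences were small: 24 of the 35 were under 0.25 in size on the log2 scale.

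**Figure D1:**
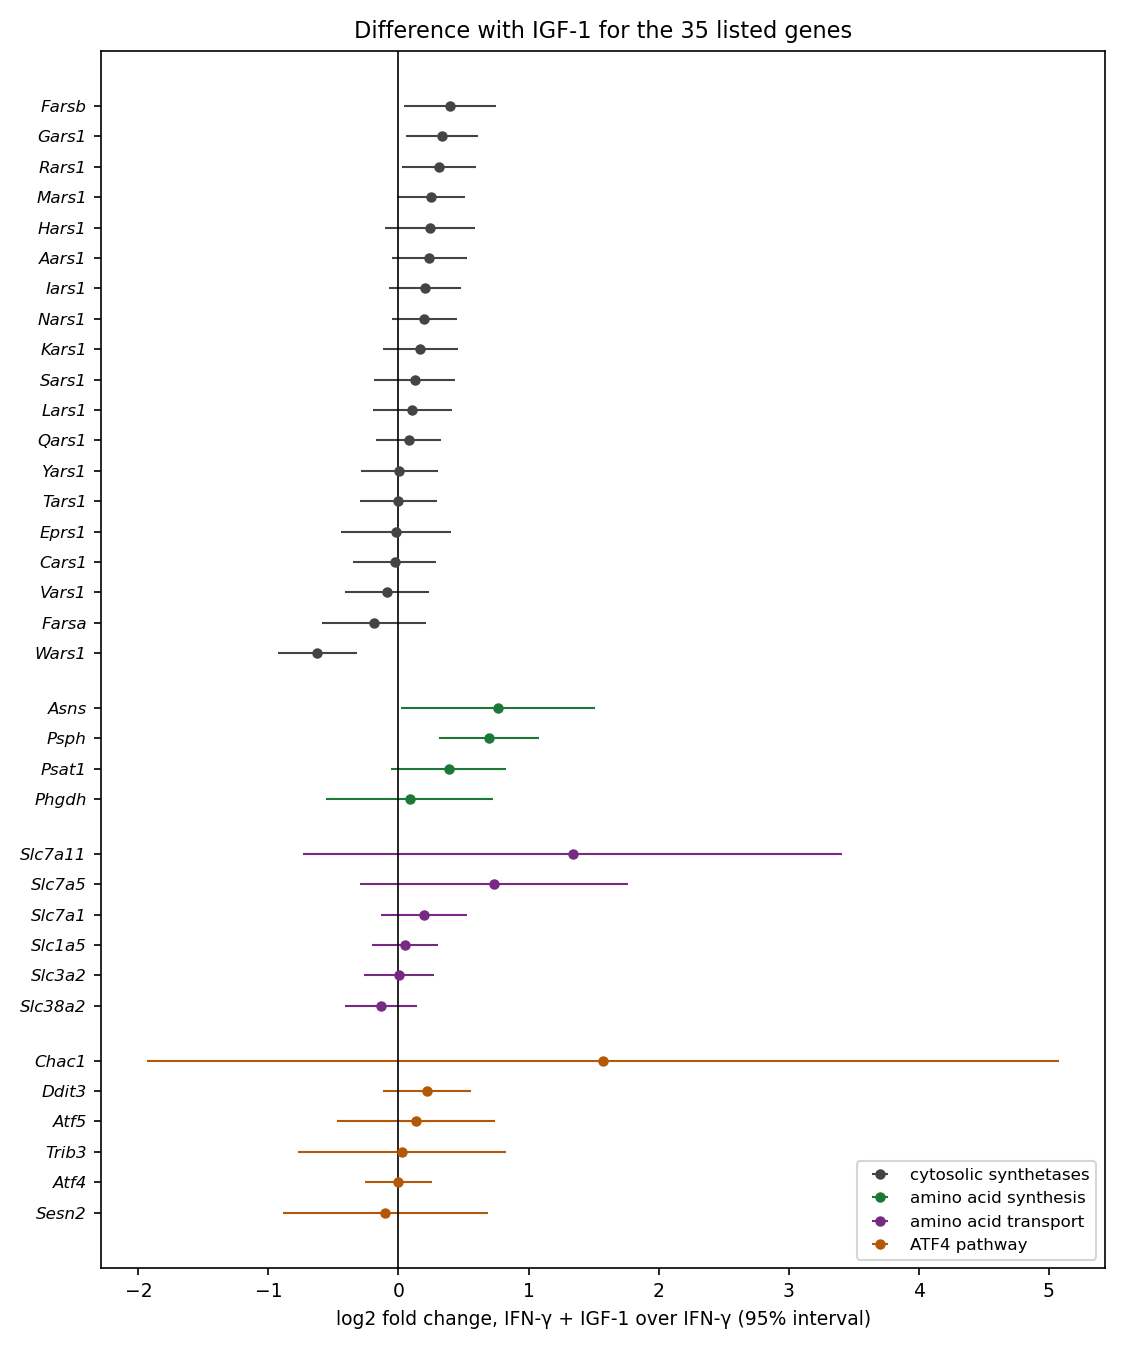
Log2 fold changes, cultures with IGF-1 over cultures without it (x axis), for the 35 genes, in order of size within each role, with 95% intervals from the edgeR fit. Wars1 (-0.62) lies apart from the other 18 synthetase genes, whose values run from -0.19 to 0.40, and the widest intervals belong to Chac1, Slc7a11 and Slc7a5.

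The cytosolic synthetases load amino acids onto their tRNAs for translation, most of them a single kind each. Over the 19 genes 13 were positive and 6 negative, with a median of 0.12 on the log2 scale, or 8.93% higher. In 6 of them, namely Gars1, Rars1, Farsb, Mars1, Iars1 and Nars1, the IGF-1 libraries were all above the others, against 8.81% of all genes tested. In 1 they were all below, against 9.17% of all genes tested.

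That gene was Wars1, the tryptophanyl-tRNA synthetase, which is known as a target of IFN-γ in many cell types. It had 112, 113 and 93.6 CPM in the cultures with IGF-1, against 182, 143 and 166 CPM in those with IFN-γ alone. The highest IGF-1 library lay below the lowest IFN-γ library. The difference was -0.62 (SE 0.14, 95% interval -0.93 to -0.32), a change of -35.1%, with an adjusted p of 0.0945 by edgeR, and Wars1 ranked 136 of all genes by p. It passed the threshold by DESeq2 (adjusted p = 0.00193), without a low-count filter (adjusted p = 0.00386) and with a filter of 10 CPM in 3 libraries (adjusted p = 0.0231). It did not pass by limma-voom (adjusted p = 0.0646), nor in any of the 6 fits that left out 1 library (adjusted p from 0.113 to 0.368).

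Gars1, the glycyl-tRNA synthetase, had 115, 109 and 98.4 CPM with IGF-1, against 79.7, 92.4 and 83.4 CPM with IFN-γ alone. All IGF-1 values were above all others, and the difference was 0.33 (SE 0.12, unadjusted p = 0.0215, adjusted p = 0.309 by edgeR). The arginyl-tRNA synthetase Rars1 had 132, 134 and 147 CPM with IGF-1, against 97.3, 123 and 113 CPM with IFN-γ alone. Its groups did not overlap, and the difference was 0.31 (SE 0.13, adjusted p = 0.365 by edgeR).

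Phenylalanyl-tRNA synthetase is built from an α and a β chain, encoded by Farsa and Farsb, and their estimates had opposite signs. Farsb had 79.0, 72.3 and 64.7 CPM with IGF-1, against 64.4, 55.2 and 44.5 CPM with IFN-γ alone, a difference of 0.40 (SE 0.16, adjusted p = 0.358 by edgeR). The lowest IGF-1 library stood only just above the highest IFN-γ library. Farsa averaged 70.4 ± 11.3 CPM with IGF-1 and 80.2 ± 17.0 CPM without it (SD, n = 3 each), a difference of -0.19 (SE 0.18, adjusted p = 0.758 by edgeR) with overlapping groups. Whether the 2 chains differed from each other was not tested.

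Eprs1 encodes a bifunctional enzyme for glutamate and proline that also sits in the complex which, in IFN-γ-treated myeloid cells, blocks translation of some mRNAs. It had 195, 157 and 193 CPM with IGF-1, against 136, 179 and 239 CPM with IFN-γ alone. Both the lowest and the highest value were in the IFN-γ group, and the estimate was -0.02 with a 95% interval of -0.44 to 0.40. Of the other synthetases, methionyl Mars1 averaged 89.0 ± 3.20 CPM with IGF-1 and 74.7 ± 4.02 CPM without it (0.25, SE 0.12), and asparaginyl Nars1 278 ± 14.8 and 242 ± 14.0 CPM (0.20, SE 0.11). The isoleucyl enzyme Iars1 averaged 90.2 ± 3.27 CPM with IGF-1 and 78.3 ± 7.80 CPM without it. The alanyl, histidyl, lysyl, seryl, leucyl and glutaminyl enzymes (Aars1, Hars1, Kars1, Sars1, Lars1 and Qars1) had positive values from 0.08 to 0.24 with overlapping groups. The tyrosyl, threonyl, cysteinyl and valyl enzymes (Yars1, Tars1, Cars1 and Vars1) lay between -0.09 and 0.01, also with overlap. None of these 13 passed at an unadjusted p under 0.05. In the RefSeq annotation of build GRCm38.p6, Wars1 overlaps Wdr25 (5.06 CPM with IGF-1 and 5.83 CPM without it), Farsb overlaps Sgpp2 (1.88 and 1.71 CPM), Hars1 overlaps Hars2 and Aars1 overlaps Ddx19b, so some of their reads could belong to either gene.

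Several synthetases are held together in the multisynthetase complex on the scaffold proteins AIMP1, AIMP2 and AIMP3. The 7 listed synthetases of the complex (Eprs1, Iars1, Lars1, Mars1, Qars1, Kars1 and Rars1) had a median of 0.17 with 6 positive, and the other 12 a median of 0.06 with 7 positive, or 0.12 over 11 without Wars1. This split was made after the values were seen, and no test was run on it. Of the scaffold genes and further cytosolic synthetases, 4 of 5 were tested and all 4 had positive values, with a median of 0.30. Of these 4, 0 passed at an adjusted p under 0.05 by edgeR, against 0.497% of all genes tested. At an unadjusted p under 0.05 by edgeR there were 2, against 11.8% of all genes tested in either direction. Eef1e1, which encodes AIMP3, averaged 70.6 ± 10.7 CPM with IGF-1 and 50.5 ± 2.78 CPM without it (0.48, SE 0.15, adjusted p = 0.204 by edgeR).

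The 20 mitochondrial synthetases and related enzymes, which charge tRNAs inside the organelle, were divided evenly between 10 positive and 10 negative values, with a median of 0.01. At an adjusted p under 0.05 there were 0, and at an unadjusted p under 0.05 there were 2 positive and 0 negative by edgeR. Over all genes tested, 5.58% were positive and 6.24% negative at that unadjusted threshold. The 2 with the smallest p were Rars2 (52.3 ± 6.67 CPM with IGF-1 and 40.4 ± 4.21 CPM without it, adjusted p = 0.365) and Wars2 (19.1 ± 1.90 and 13.3 ± 3.15 CPM, adjusted p = 0.392). Wars2, the mitochondrial tryptophan enzyme, had a value of 0.52 (SE 0.22), opposite in sign to that of Wars1.

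**Figure D2:**
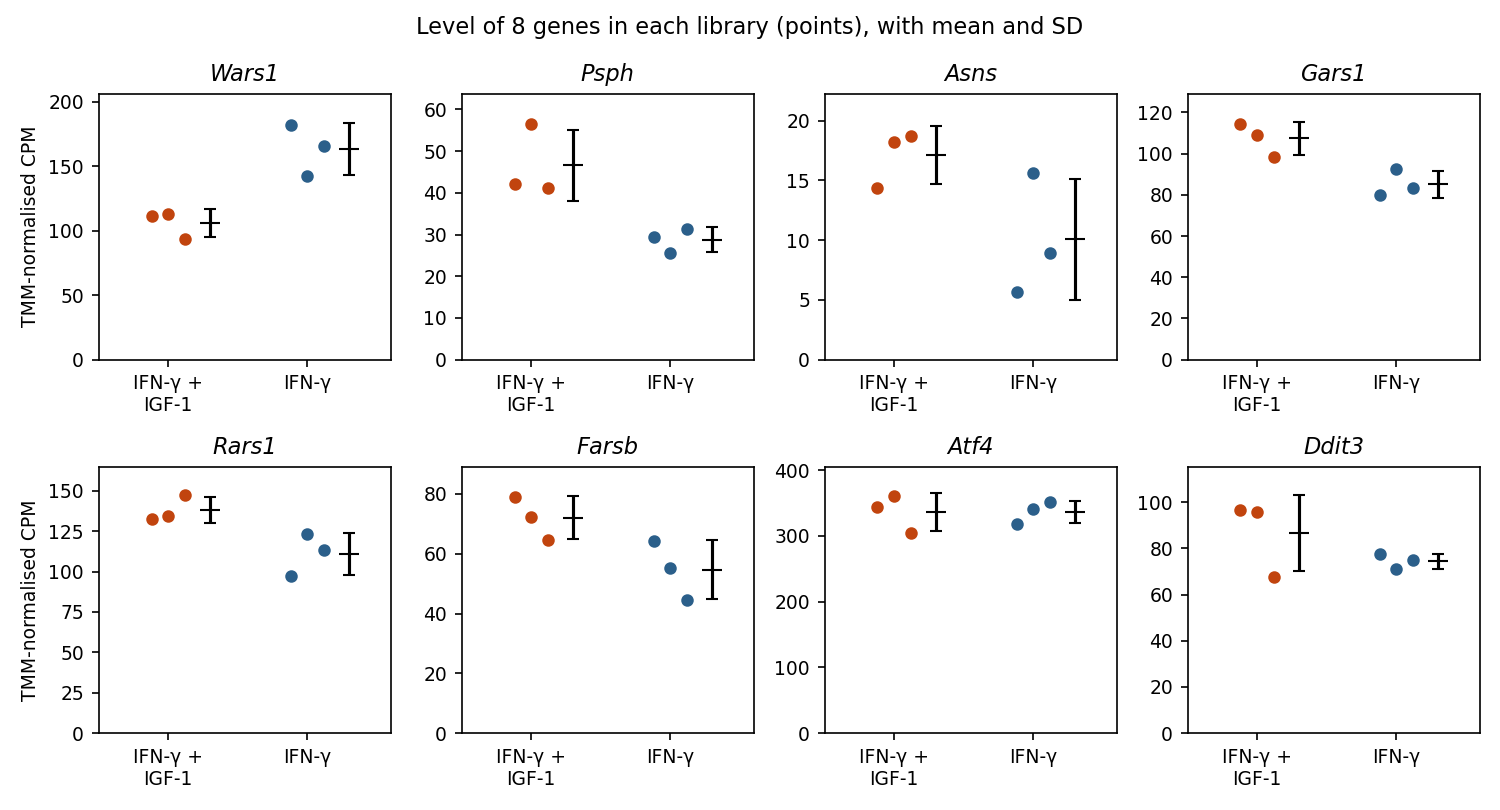
TMM-normalised CPM (y axis, from 0) of 8 genes in each library, with the mean and SD beside the points of each group, n = 3 each. Wars1 sits at 93.6 to 113 CPM with IGF-1 and 143 to 182 CPM without it, Psph at 41.1 to 56.5 and 25.5 to 31.4 CPM, and the groups overlap for Asns, Atf4 and Ddit3.

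The 4 enzymes of amino acid synthesis were all positive, with a median of 0.54 or 45.5% higher. Phgdh, Psat1 and Psph catalyse the successive steps that make serine from a glycolytic intermediate, and Asns makes asparagine from aspartate. Psph, the last step, had 42.2, 56.5 and 41.1 CPM with IGF-1, against 29.4, 25.5 and 31.4 CPM with IFN-γ alone. Every IGF-1 library was above every IFN-γ library, and the second replicate with IGF-1 was the highest. The difference was 0.70 (SE 0.17, adjusted p = 0.135 by edgeR), or 62.0% higher. It passed by DESeq2 (adjusted p = 0.0154) and without a low-count filter (adjusted p = 0.0130). It did not pass by limma-voom (adjusted p = 0.133) or with the 10 CPM filter (adjusted p = 0.0644). With 1 library left out it ran from 0.53 to 0.78 and passed in none of the 6 fits (adjusted p from 0.134 to 0.435). In the RefSeq annotation of build GRCm38.p6 Psph overlaps the chaperonin gene Cct6a, and the library kit does not mark strand. Cct6a averaged 244 ± 18.5 CPM with IGF-1 and 224 ± 10.8 CPM without it, a difference of 0.12 (SE 0.12).

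Psat1, the middle step, had 16.6, 20.7 and 16.6 CPM with IGF-1, against 14.98, 13.7 and 12.6 CPM with IFN-γ alone. These groups did not overlap, with a difference of 0.39 (SE 0.20, adjusted p = 0.492 by edgeR). Phgdh, which opens the pathway, had 15.7, 25.2 and 13.8 CPM with IGF-1, against 23.5, 13.4 and 14.6 CPM with IFN-γ alone. One library in each group was high and the others were alike, so the estimate of 0.09 had a 95% interval of -0.56 to 0.73.

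Asns had 14.3, 18.2 and 18.8 CPM with IGF-1, against 5.69, 15.6 and 8.92 CPM with IFN-γ alone. The second IFN-γ library reached into the range of the IGF-1 libraries. The difference was 0.76 (SE 0.34, unadjusted p = 0.0449, adjusted p = 0.405 by edgeR), and it was 1.23 without that library and 0.48 without the first IFN-γ library, which was the lowest.

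**Figure D3:**
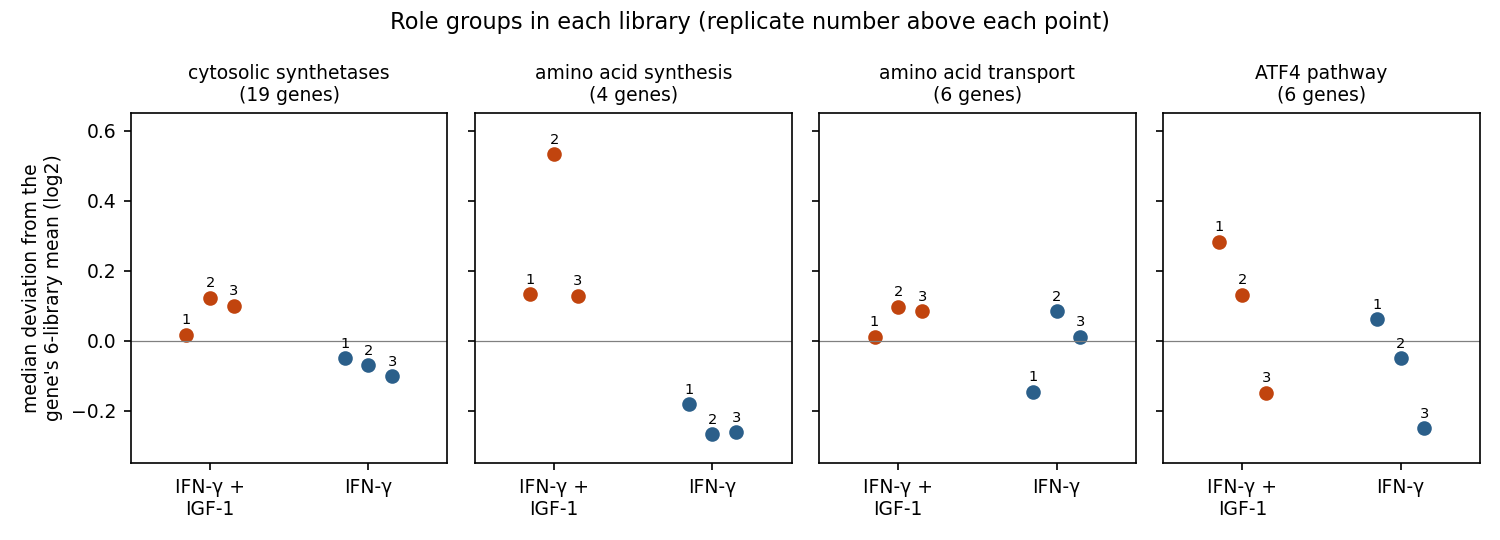
Median over the genes of each role of the deviation from the gene's mean over the 6 libraries (y axis, log2 of CPM plus 0.5), 1 point per library, with its replicate number. For the synthetases the IGF-1 libraries lie at 0.02 to 0.12 and the IFN-γ libraries at -0.10 to -0.05, while the groups overlap for transport and for the ATF4 pathway.

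The carriers bring amino acids into the cell, and of their 6 genes 5 were positive and 1 negative, with a median of 0.12. Slc3a2 and Slc7a5 encode the heavy and light chains of LAT1, the carrier of leucine and other large neutral amino acids. Slc7a5 had 7.60, 9.34 and 5.82 CPM with IGF-1, against 1.67, 6.37 and 5.63 CPM with IFN-γ alone. The groups overlapped and the first IFN-γ library was far below the rest, giving an estimate of 0.74 (SE 0.46, adjusted p = 0.594 by edgeR), which was 0.34 without that library. Slc3a2 had 161, 151 and 169.7 CPM with IGF-1, against 144, 162 and 173 CPM with IFN-γ alone. Its estimate was 0.01 with a 95% interval of -0.26 to 0.28, and the groups overlapped.

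Slc7a11 encodes the light chain of the cystine carrier xCT, which also pairs with the Slc3a2 product. It had 2.19, 5.60 and 3.37 CPM with IGF-1, against 0.89, 3.44 and 0.08 CPM with IFN-γ alone. These came from raw counts of 85, 193 and 126 with IGF-1 and 33, 115 and 3 with IFN-γ alone. The libraries overlapped, and the 95% interval of the difference, from -0.73 to 3.41, was wide. The glutamine carrier Slc1a5 averaged 176 ± 5.23 CPM with IGF-1 and 170.5 ± 10.8 CPM without it, and the neutral amino acid carrier Slc38a2, a known ATF4 target, 297 ± 34.4 and 326 ± 18.0 CPM. The arginine and lysine carrier Slc7a1 averaged 32.0 ± 2.03 CPM with IGF-1 and 27.9 ± 1.20 CPM without it (0.20, SE 0.15, adjusted p = 0.673 by edgeR), with groups that did not overlap.

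Of the 6 genes of the ATF4 pathway, 4 were positive and 2 negative, the median was 0.08, and the groups overlapped in all 6. Atf4 had 343, 361 and 305 CPM with IGF-1, against 318, 341 and 351 CPM with IFN-γ alone. The lowest and the highest library were both in the IGF-1 group. The estimate was 0.00 (-0.0025), with a 95% interval of -0.26 to 0.26. Ddit3, the stress factor CHOP, had 96.7, 95.6 and 67.8 CPM with IGF-1, against 77.5, 71.1 and 74.9 CPM with IFN-γ alone. Both values near 96 CPM were in the IGF-1 group, whose replicate 3 was the lowest of all 6, and the estimate was 0.22 (SE 0.15, adjusted p = 0.641 by edgeR). It was 0.37 without that library, and 0.13 and 0.14 without the first and the second IGF-1 library. Ddit3 overlaps Mars1 in the RefSeq annotation of build GRCm38.p6, so reads of these 2 listed genes cannot be told apart with certainty.

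The other 3 targets, Trib3, Sesn2 and Chac1, were under 10 CPM in every library. Trib3, a pseudokinase induced by ATF4 and CHOP, had 7.52, 7.02 and 4.38 CPM with IGF-1, against 8.62, 5.53 and 4.43 CPM with IFN-γ alone. Sesn2, an inhibitor of mTORC1 that senses leucine, had 8.47, 4.84 and 5.64 CPM with IGF-1, against 7.73, 4.36 and 8.22 CPM with IFN-γ alone. Neither separated the groups, with estimates of 0.03 (SE 0.36) and -0.10 (SE 0.36). Chac1, which degrades glutathione, had 51, 0 and 16 raw counts with IGF-1, against 5, 15 and 0 with IFN-γ alone. With a library at 0 in each group its fitted value of 1.57 (SE 1.58) carried no detectable difference. Atf5, the relative of ATF4, averaged 8.62 ± 0.52 CPM with IGF-1 and 7.85 ± 1.65 CPM without it. In the RefSeq annotation of build GRCm38.p6 Atf5 overlaps Nup62 and Il4i1b, so some of its reads could belong to those genes.

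Upstream of ATF4, 9 genes of the eIF2α kinases and the phosphatase arm had 4 positive and 5 negative values and a median of -0.05. At an adjusted p under 0.05 there were 0, and at an unadjusted p under 0.05 there were 2 positive and 1 negative by edgeR. The shares of all genes tested at that unadjusted threshold were 5.58% positive and 6.24% negative. Eif2s1, which encodes eIF2α itself, had 261, 292 and 257 CPM with IGF-1, against 161, 189 and 176 CPM with IFN-γ alone. The groups did not overlap, and the difference of 0.63 (SE 0.12) had an adjusted p of 0.0635 by edgeR. It passed by DESeq2 (adjusted p = 0.000115) and limma-voom (adjusted p = 0.0346), with no filter (adjusted p = 0.00212) and with the 10 CPM filter (adjusted p = 0.0183). It did not pass in any of the 6 fits that left out 1 library (adjusted p from 0.0826 to 0.281). Eif2ak3, the endoplasmic reticulum kinase PERK, averaged 26.7 ± 3.65 CPM with IGF-1 and 19.1 ± 2.44 CPM without it (0.48, SE 0.19, adjusted p = 0.334 by edgeR).

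Further ATF4 targets, metabolic genes and carriers had medians between -0.03 and 0.08. Of 14 partners and other targets of ATF4, 11 were tested, with 4 positive, 7 negative and a median of -0.03. None had an unadjusted p under 0.05 by edgeR, and those with the smallest p were Atf3 (45.2 ± 10.0 CPM with IGF-1 and 59.2 ± 12.8 CPM without it) and Herpud1 (156 ± 5.76 and 135 ± 4.83 CPM). Of 21 further genes of amino acid metabolism 17 were tested, with 11 positive, 6 negative and a median of 0.08. Only 1 gene, with a negative value, had an unadjusted p under 0.05 by edgeR, against 6.24% of all genes tested negative. That was Pck2, the mitochondrial enzyme that makes phosphoenolpyruvate and a known ATF4 target.

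Pck2 had 18.7, 26.3 and 23.4 CPM with IGF-1, against 40.04, 39.97 and 39.8 CPM with IFN-γ alone. The 3 IFN-γ libraries were almost identical and all IGF-1 libraries lay below them, with a difference of -0.81 (SE 0.17, adjusted p = 0.0829 by edgeR). It passed by DESeq2 (adjusted p = 0.00203), with no filter (adjusted p = 0.00461) and with the 10 CPM filter (adjusted p = 0.0302). It did not pass by limma-voom (adjusted p = 0.0565), nor with any 1 of the 6 libraries left out (adjusted p from 0.0950 to 0.321). Odc1, which makes the polyamine putrescine, averaged 737 ± 7.46 CPM with IGF-1 and 647 ± 35.5 CPM without it (adjusted p = 0.531 by edgeR). Of 14 further carriers 11 were tested, with 5 positive, 6 negative and a median of -0.03. The smallest p there belonged to the lysosomal arginine sensor Slc38a9 (34.6 ± 4.53 CPM with IGF-1 and 45.0 ± 2.98 CPM without it, -0.38, SE 0.15, adjusted p = 0.350 by edgeR) and to Slc7a3, at 1.08 ± 0.44 and 2.85 ± 2.36 CPM.

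**Figure D4:**
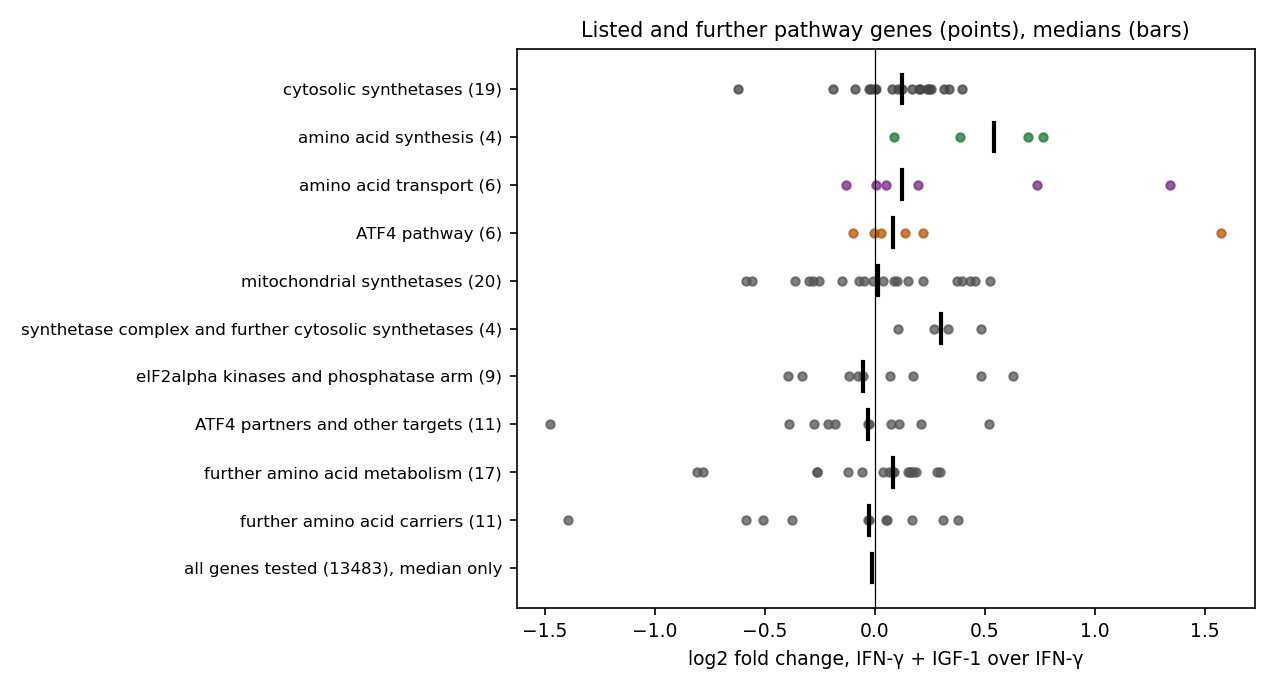
Log2 fold changes, cultures with IGF-1 over cultures without it (x axis), for each tested gene (points) of the 4 roles described and of 6 further lists, with the number tested in parentheses and each list's median as a bar. The medians run from -0.05 for the eIF2α kinases to 0.54 for amino acid synthesis, beside -0.01 for all 13483 genes.

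ATF4 binds DNA with C/EBP proteins at the C/EBP-ATF response element, whose core is searched here as TGATGNAA on both strands, N being any base. The promoter windows, 250 bases before to 50 after the annotated start, are from RefSeq on build GRCm38.p6, which is not the GRCm39 build of the counts. A window was found for 26 of the 35 genes, matched by symbol or listed synonym. The other 9, namely Cars1, Hars1, Lars1, Nars1, Rars1, Vars1, Wars1, Slc7a5 and Slc1a5, had no window and were not searched. Of the 26 genes, 9 held the letters in 11 places: Aars1, Gars1, Iars1, Tars1, Yars1, Asns, Slc7a11, Trib3 and Chac1. Counted per window this was 9 of 29 (31.0%), against 3.97% of all 32851 windows in the table. The narrower TGATGCAA, which is contained in the first motif, was in 6 of the 26 genes. Counted per window this was 6 of 29 (20.7%), against 0.895% of all windows. Among the 12694 windows of tested genes, matched by symbol alone, the shares were 2.31% for TGATGNAA and 0.638% for TGATGCAA. The 9 genes with the motif had a median log2 fold change of 0.24 (range 0.00 to 1.57, 8 of 9 positive), and the 17 without it a median of 0.12 (range -0.19 to 0.70, 12 of 17 positive). These ranges overlapped. A match is a match of letters and not a measured binding site.

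The 150 bases before the start are shown for 5 genes with a match there and, for contrast, for Psph, which had the smallest p among the positive genes and held no match in its window. Each is written 5′ to 3′ along the gene's strand, with matches to TGATGNAA or to its reverse complement TTNCATCA in capitals.
Asns (chr6:7693210-7693359, minus strand): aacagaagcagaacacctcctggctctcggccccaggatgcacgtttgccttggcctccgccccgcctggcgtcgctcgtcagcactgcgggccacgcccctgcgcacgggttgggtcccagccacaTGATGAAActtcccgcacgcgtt
Slc7a11 (chr3:50443614-50443763, minus strand): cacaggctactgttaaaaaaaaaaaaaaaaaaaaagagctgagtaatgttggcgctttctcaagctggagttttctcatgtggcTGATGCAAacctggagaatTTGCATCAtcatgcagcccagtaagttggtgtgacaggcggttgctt
Gars1 (chr6:55037851-55038000, plus strand): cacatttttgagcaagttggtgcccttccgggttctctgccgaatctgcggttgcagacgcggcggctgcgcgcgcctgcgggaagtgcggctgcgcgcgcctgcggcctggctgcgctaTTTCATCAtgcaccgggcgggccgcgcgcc
Aars1 (chr8:111033692-111033841, plus strand): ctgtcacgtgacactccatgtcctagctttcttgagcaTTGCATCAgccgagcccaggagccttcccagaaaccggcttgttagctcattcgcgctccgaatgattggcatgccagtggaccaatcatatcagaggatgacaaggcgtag
Tars1 (chr15:11399659-11399808, minus strand): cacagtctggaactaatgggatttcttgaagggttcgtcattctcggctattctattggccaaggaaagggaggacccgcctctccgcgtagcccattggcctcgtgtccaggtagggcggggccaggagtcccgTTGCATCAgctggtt
Psph (chr5:129787254-129787403, minus strand): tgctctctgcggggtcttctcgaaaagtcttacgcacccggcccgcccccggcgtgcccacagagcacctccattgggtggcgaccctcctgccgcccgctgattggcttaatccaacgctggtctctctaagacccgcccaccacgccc

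In Asns the match begins 23 bases before the annotated start and in Gars1 30 bases before it. Both genes had positive differences at an unadjusted p under 0.05 by edgeR. Among the other genes with such differences, Psph and Farsb held no match in their windows and Rars1 had no window. Yars1 and Trib3 held a match and had estimates of 0.01 and 0.03, with overlapping groups. Slc7a11 holds 2 matches, on opposite strands, that begin 66 and 47 bases before the start. The match of Tars1 begins 15 bases before the start, yet its level averaged 118 ± 17.8 CPM with IGF-1 and 118 ± 0.69 CPM without it, an estimate of 0.00 with a 95% interval of -0.30 to 0.30. Aars1 holds a match beginning 112 bases before the start and another 10 bases into the transcript, and averaged 122 ± 15.9 CPM with IGF-1 and 104 ± 3.61 CPM without it (0.24, SE 0.13). A match to the letters was present both in genes whose groups separated and in genes whose groups did not.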

How the data were processed

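The deposited table holds raw counts, 1 row per gene and 1 column per library, with no normalization by the authors. Per the submitters' processing notes, fastp 0.23.2, HISAT2 2.2.1, SAMtools 1.15.1, featureCounts 1.5.3 and build GRCm39 were used. The annotation, strand setting and treatment of multi-mapping reads were not given in the sources used here, so reads of overlapping genes may be shared between them. Per the labels' protocols the kit was SMART-Seq HT, which does not mark strand, and libraries were grouped by title.

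Genes were kept by filterByExpr (at least 10 counts in enough libraries and 15 in total), leaving 13483 genes with all 35 listed ones. The test was edgeR 4.0.16 (R 4.3.3) with TMM scaling and group as the only term, and SE is the log2 fold change over the square root of F. The 95% intervals use the moderated degrees of freedom of the fit. The fit was tested on simulated counts, with known changes placed in genes averaging at least 10 CPM. It called 29.6% of the changes of 0.6 on the log2 scale and 82% of those of 1. A mean of 9.4 unchanged genes was also called. Changes smaller than 0.6, the size of most listed differences, were not simulated. The lowest two-sided exact permutation p for 3 against 3 is 0.1, so none is given for single genes.

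Role groups are described by counts and medians with no set test. Genes named in the further lists are the 2 with the smallest p in each, of which 1 is not reported here. The listed genes, lists and motif were chosen with earlier results of these data known. Alternatives were a replicate block, RLE and upper quartile scaling, DESeq2 1.42.0, limma-voom (limma 3.58.1), other filters, an adjusted p of 0.1 and leaving out each library.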

Additional observations from a re-analysis of the deposited data

How the results depend on the processing

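Over all genes, 31 were higher and 36 lower with IGF-1 at an adjusted p under 0.05. These counts were 3 and 5 with the replicate block, 200 and 256 by DESeq2, 171 and 258 with no filter, 63 and 115 with a filter of 10 CPM in 3 libraries, 57 and 87 at an adjusted p under 0.1, and 60 lower by limma-voom. With 1 library left out they ranged from 0 to 24 higher and from 0 to 31 lower. Of the listed genes, 0 were higher and 0 lower by edgeR. The counts became 1 higher (Psph) and 1 lower (Wars1) by DESeq2 and with no filter, and 1 lower (Wars1) with the 10 CPM filter, which kept 29 of the 35 genes. Why the calls differ between these settings was not tested.

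The replicate numbers showed no clear pairing: the deviations of same-numbered libraries from their group means correlated across genes at -0.08, -0.02 and 0.11. Libraries with different numbers gave values from -0.13 to 0.13. With 3 libraries per group these values cannot exclude a pairing, and the labels do not settle it. With the replicate block 0 listed genes were called, and Wars1 stood at -0.62 (adjusted p = 0.190) and Psph at 0.68 (adjusted p = 0.260).

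The median of the synthetases was 0.12 and ranged from 0.0774 to 0.19 with 1 library left out. Without Wars1 it was 0.15. The medians ranged from 0.40 to 0.60 for amino acid synthesis, 0.09 to 0.16 for transport and 0.04 to 0.26 for the ATF4 pathway. With the 10 CPM filter, which drops Slc7a5 and Slc7a11, the transport median was 0.0143.

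Signs turned in at least 1 alternative for 12 of the 35 genes, none with a size above 0.135 on the log2 scale. Eprs1 became 0.0105 with the replicate block and 0.0135 by limma-voom, Yars1 -0.0068 and Slc3a2 -0.0066 with the 10 CPM filter, and Tars1 0.0084 and 0.0035 and Atf4 0.0082 and 0.0019 with upper quartile scaling and with no filter. With 1 library left out the ranges were -0.11 to 0.0731 for Cars1, -0.20 to 0.21 for Eprs1, -0.13 to 0.0867 for Tars1, -0.16 to 0.042 for Vars1, -0.0465 to 0.10 for Yars1, -0.22 to 0.38 for Phgdh, -0.0618 to 0.0668 for Slc3a2, -0.0002 to 0.0874 for Slc1a5, -0.0573 to 0.0644 for Atf4, -0.0246 to 0.27 for Atf5, -0.17 to 0.34 for Trib3 and -0.37 to 0.0617 for Sesn2. The ILC3 marker Kit ranged from -0.16 to 0.0114. The marker calls of Fcgr3 and Epcam were lost in each of the 6 fits that left out 1 library, with adjusted p-values from 0.0623 to 0.226 for Fcgr3 and from 0.0783 to 0.239 for Epcam. Low counts limit Chac1, Slc7a11 and Slc7a5. The kit has no molecular identifiers, so read counts overstate the number of molecules sampled.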
